A study of Mus musculus with 12 samples.

Results

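The genes described here were grouped as ion, water and absorption genes of colonocytes, epithelial cells of the colon, though not all are particular to these cells. The group holds the water channels Aqp4 and Aqp8 and the carbonic anhydrases Car1, Car2 and Car4. It also holds the sodium channel subunit Scnn1a, the chloride channel Cftr and the fatty acid carrier Fabp2. These genes were named as a list of 8, and their rows were taken by gene symbol from deposited lists of m6A peaks. Of the 8 genes, 7 had a listed peak in at least 1 library, among 11548 genes with a peak in any library. Car1, a cytosolic carbonic anhydrase abundant in the colon, had no listed peak in any of the 6 lists.

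The colon absorbs water and salt. Sodium enters through the epithelial sodium channel, chloride and bicarbonate move through exchangers and channels that carbonic anhydrases supply with bicarbonate and protons, and water follows through aquaporins. N6-methyladenosine (m6A) is a common internal modification of mRNA that is often placed in long exons and around the stop codon, and it affects the stability and translation of the transcripts that carry it. Antibody pull-down with sequencing (MeRIP-seq) finds it as peaks of pulled-down RNA over input RNA.

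Colon was compared between wild-type male C57BL/6J mice on normal feeding and wild-type male C57BL/6J mice with colitis induced by 5% w/v TNBS, a hapten given through the anus into the colon. All were 6 to 8 weeks old and weighed 20 to 22 g, and the series asks how the m6A marks of the transcripts differ between normal and inflamed colon. There were 3 mouse labels in each group, each with a pulled-down and an input library, and 1 peak list per mouse label. Nothing in the labels says whether the RNA came from 1 animal each, so the p-values below measure the spread between these samples.

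The lists held 13992 to 16488 peaks in normal and 10971 to 19285 in TNBS libraries, the shortest being TNBS 2. The labels call all mice male, but TNBS 1 and TNBS 3 listed 0 peaks on the Y chromosome outside its distal end, against 12 in every normal list and 19 in TNBS 2. Numbers of peaks that change without these libraries are therefore also given without them. The extraction text speaks of retina, and 1 of 12 retina markers was listed, Abca4 in TNBS 2. Of 12 epithelial markers 4 to 6 had a peak in each normal library and 6, 4 and 9 in TNBS 1, 2 and 3, with Krt20, Cldn3, Cldn4 and Cdx2 in all 6 libraries and Cdh1, Krt18 and Krt19 in none. In such whole tissue, fewer cells of a type and less RNA per cell cannot be told apart, and a missing peak can also come from a scarce transcript or few reads, none of which was measured here.

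Each normal library listed a peak in the same 5 members: Aqp4, Car2, Scnn1a, Cftr and Fabp2. Of these, Scnn1a and Cftr were listed in all 6 libraries, as were 48.1% of all genes. TNBS 1 listed 5 members, TNBS 2 listed 2 and TNBS 3 listed 6. Over all genes, 70.6% to 78.2% were listed in each normal library and 82.6%, 59.6% and 81.7% in TNBS 1, 2 and 3, so the low count of TNBS 2 stands beside its short list. In all, 62 peaks lay in members, with 13, 13 and 12 in the normal lists and 9, 4 and 11 in the TNBS lists. As a share of its list this was 0.0788%, 0.0796% and 0.0858% in normal and 0.0480%, 0.0365% and 0.0570% in TNBS libraries. The plot of peak numbers by gene and library shows that this lower total in TNBS lists comes mostly from Aqp4. No member had a peak in every library of 1 group and none of the other, a pattern that 1.04% of all genes showed for normal and 0.996% for TNBS libraries. Of the 7 listed members 3 were in more normal than TNBS libraries and 2 in more TNBS than normal ones. Over all genes these shares were 23.9% and 21.1%. The median difference among the members was 0 libraries, as it was over all genes.

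**Figure D1:**
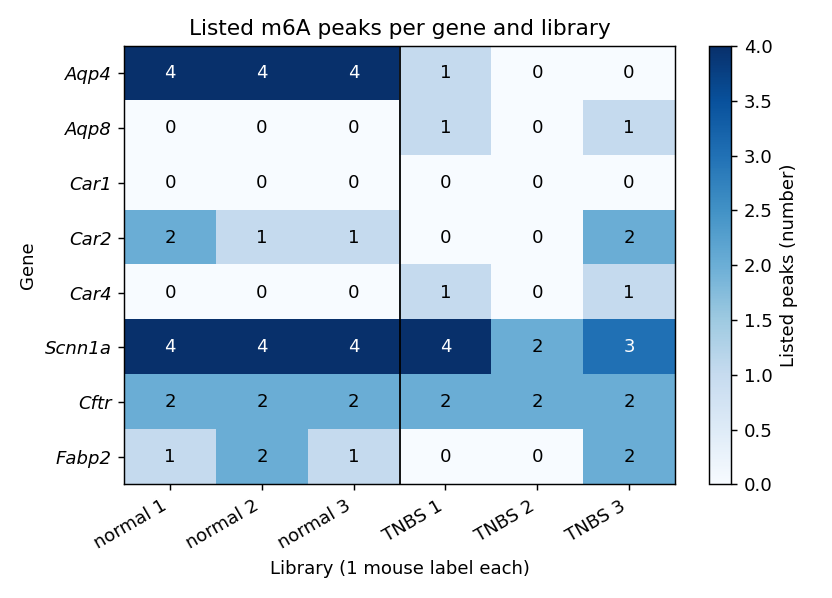
Number of listed m6A peaks (cell value and shade) for each of the 8 genes (rows) in each library (columns; 3 normal, 3 TNBS). Aqp4 has 4 peaks in every normal library and 1, 0 and 0 in the TNBS libraries, while Cftr has 2 in all 6.

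Aqp4, the water channel of the basolateral membrane of colon surface cells, which enteric glia can also express, differed most among the members. It was listed with 4 peaks in each normal library, with 1 peak in TNBS 1 and with 0 in TNBS 2 and TNBS 3. The normal libraries therefore all lay above the TNBS libraries, a pattern found in 2.15% of all genes and, among the members, in Aqp4 alone. No member had more peaks in every TNBS than in every normal library, which 1.97% of all genes did. The mean was 4 ± 0 peaks in normal and 0.333 ± 0.577 in TNBS libraries (SD, n = 3 per group; exact two-sided permutation p = 0.1, the smallest that 3 against 3 libraries allow, reached by 4.12% of all genes). Adjusted over all 11548 genes by Benjamini-Hochberg, the exact permutation p was 1, as it was for every gene. Without TNBS 1 and TNBS 3 the difference was -4 peaks. That direction was fixed, because the 1 remaining TNBS list, TNBS 2, had no Aqp4 peak and is the shortest list. A presence in the 3 normal libraries and TNBS 1 alone was shared by 1.97% of all genes.

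Aqp4 lies on chromosome 18, 15389394 to 15410982 (GRCm38.p6), on the minus strand, so its lower coordinates hold the end of the transcript. Its widest peak, 15389394 to 15393729 in normal 1, covered 4336 bases and began at the last base of the gene, and in normal 2 and normal 3 it covered 4313 bases. Its fold enrichment, the authors' ratio of pulled-down to input signal at that peak, was 43.9 in normal 1, 33.2 in normal 2 and 21.55 in normal 3. This placed it at percentile 95.6, 94.7 and 88.1 of fold enrichment within the respective list. No TNBS list had a peak there under any gene name.

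The other Aqp4 peaks were shorter and lay inside the gene. The peak at 15398091 to 15398255 covered 165 bases in normal 1, 2 and 3 and was enriched 28.6-fold, 24.3-fold and 14.9-fold. The peak at 15402659 to 15402999 covered 341 bases and was enriched 15.35-fold, 13.4-fold and 8.22-fold. Neither was listed in a TNBS library. The peak at 15399588 to 15400172, of 585 bases, was the exception: it had a fold enrichment of 18.65, 16.4 and 11.4 in the normal lists and 25.0 in TNBS 1. In TNBS 1 this peak stood at percentile 91.3 of the caller's score, among the peaks tied at a score of 3100. The map of peaks along Aqp4 and Scnn1a shows 3 of the 4 Aqp4 regions in normal lists alone. The files assign the 2 lowest regions to transcript NM_009700 and the others to the transcripts uc008edq.2 and uc008edr.2. The 3 normal regions were the only member regions called in 3 of 3 normal and 0 of 3 TNBS libraries, out of 16, against 1.54% of all 26654 regions, and they belong to 1 gene. No member region was called in 3 of 3 TNBS and 0 of 3 normal libraries, against 0.949% of all regions.

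In bases covered, Aqp4 had 5427, 5404 and 5404 in normal 1, 2 and 3 and 585, 0 and 0 in TNBS 1, 2 and 3. The groups did not overlap, which among the members held for Aqp4 and Cftr, both higher in normal lists, and over all genes for 5.85% in this direction and 2.77% in the other. The difference of means was -5217 bases (TNBS minus normal, exact permutation p = 0.1, adjusted p = 1). An exact permutation p of 0.1 on bases was reached by 8.62% of all genes. Of 6 enteric glia markers, 2, 3 and 2 were listed in normal 1, 2 and 3, and 3, 2 and 2 in TNBS 1, 2 and 3, with S100b and Gfap in none, and the part of glia in the Aqp4 result was not tested.

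**Figure D2:**
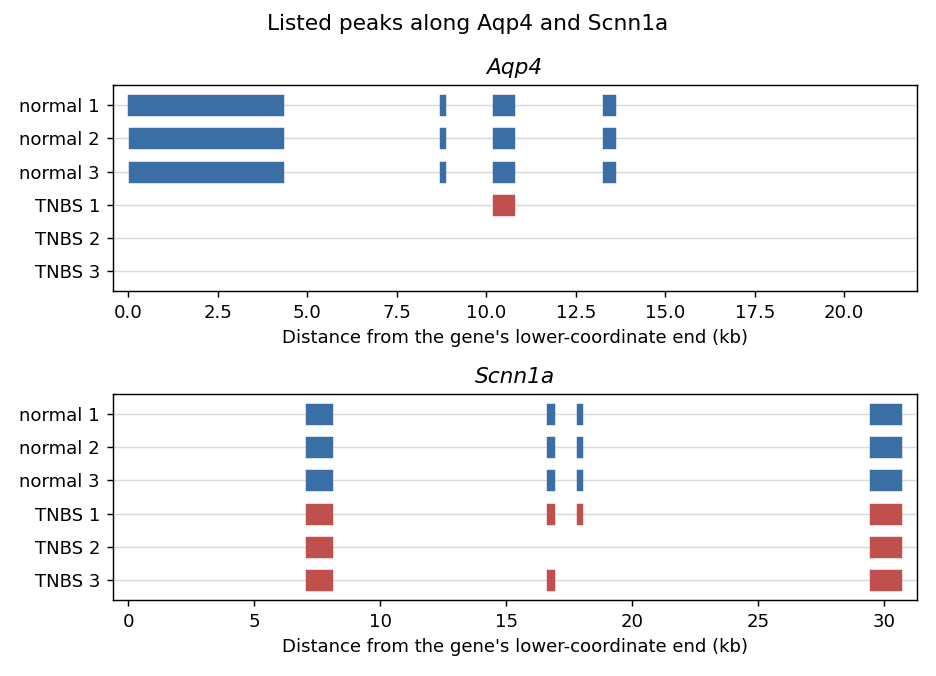
Listed peaks (bars, drawn to scale) along Aqp4 and Scnn1a in each library, as distance in kb from the end of the gene with the lower coordinate; blue, normal; red, TNBS. The Aqp4 peaks of the normal lists are missing from the TNBS lists except the one of 585 bases in TNBS 1, whereas both wide Scnn1a peaks are in all 6 lists.

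Aqp8, a channel for water and small neutral solutes in the apical part of colonocytes, showed the opposite presence. It had 0 peaks in the 3 normal lists and 1 peak each in TNBS 1 and TNBS 3, at chromosome 7, 123467408 to 123468003, with 0 in TNBS 2. The peak covered 596 bases and ended at the last base of the gene, which is read on the plus strand. Its fold enrichment was 6.07 in TNBS 1 and 7.97 in TNBS 3, at percentile 16.1 and 28.1 of the caller's score, so it ranked low in both lists. The groups overlapped at 0 peaks (difference 0.667 peaks, exact permutation p = 0.4). With the lists brought to equal length by score, or without TNBS 1 and TNBS 3, Aqp8 had no peak in any library.

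Among the carbonic anhydrases, which interconvert carbon dioxide and bicarbonate, the 3 members differed in where they were listed. Car2, a fast cytosolic form, had 2, 1 and 1 peaks in the normal lists, 0 in TNBS 1 and TNBS 2, and 2 in TNBS 3. Its main peak lay at chromosome 3, 14886426 to 14886786, 361 bases beginning 157 bases from the lower end of the gene. Car2 is read on the plus strand, so this is near the start of the transcript. The fold enrichment there was 12.3, 9.12 and 9.23 in the normal lists and 13.3 in TNBS 3, at percentile 71.6, 61.5, 69.5 and 66.4 of the caller's score. Where Car2 was listed at all, its main peak therefore held a similar place in each list. The second Car2 peak, 14887834 to 14888031, was listed in normal 1 and TNBS 3 with scores of 69.92 and 58.1, close to the lowest listed score of 50. The difference was -0.667 peaks (exact permutation p = 0.6). Leaving out 1 library gave -1.33 (without TNBS 3) to -0.333 (without normal 1, TNBS 1 or TNBS 2), and without TNBS 1 and TNBS 3 together it was -1.33.

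Car4, a form anchored on the outer face of the apical membrane, was listed like Aqp8. It had 0 peaks in normal lists and 1 each in TNBS 1 and TNBS 3, at chromosome 11, 84965611 to 84966054, 444 bases ending at the last base of this plus-strand gene. The fold enrichment was 3.36 and 4.39, among the lowest in those lists, at percentile 0.813 and 0.801. The difference was 0.667 peaks (exact permutation p = 0.4), and the groups overlapped at 0. As for Aqp8, no Car4 peak was left when lists were brought to equal length or without TNBS 1 and TNBS 3. Peaks in TNBS 1 and TNBS 3 alone occurred in 3.65% of all genes, and these were also the 2 longest lists. Car1, in the same gene cluster as Car2, had none, so no comparison was possible.

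The ion channels were listed in every library. Scnn1a, the alpha subunit that the epithelial sodium channel needs to conduct, was listed with 4 peaks in each normal library, 4 in TNBS 1, 2 in TNBS 2 and 3 in TNBS 3. The groups overlapped at 4 (difference -1 peak, exact permutation p = 0.4). Without TNBS 1 the groups no longer overlapped and the difference was -1.5 peaks (exact permutation p = 0.1, the smallest for 3 against 2). The TNBS lists left were then TNBS 3 and TNBS 2, the shortest list. How many of all genes separate with TNBS 1 left out was not counted, so no change is read from this. The Scnn1a difference was -0.5 peaks without TNBS 2 and -2 without TNBS 1 and TNBS 3 together. Scnn1a lies on the plus strand of chromosome 6, 125314271 to 125344943. Both of its wide peaks were in all 6 lists with the same ends, 1035 bases at 125321340 to 125322374 and 1245 bases at 125343699 to 125344943, the second ending at the last base of the gene. The first had a fold enrichment of 36.6, 33.1 and 29.7 in the normal lists and 38.1, 13.5 and 41.2 in TNBS 1, 2 and 3. The second had 22.0, 19.2 and 15.9 in normal 1, 2 and 3, and 49.4, 9.98 and 32.9 in TNBS 1, 2 and 3. In both, TNBS 2 held the lowest value and also the lowest percentile of the caller's score, 79.2 and 56.1.

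The remaining Scnn1a peaks were weaker. The peak of 274 bases at 125330911 to 125331184 was missing from TNBS 2 alone. The peak of 191 bases at 125332093 to 125332283 was in the 3 normal lists, with scores of 52.87, 50.66 and 84.04, and in TNBS 1, with 178.29. The first scored 72.15 in normal 3, so both smaller peaks were near the listing limit of 50 in at least 1 normal library. When only peaks with a p of at most 1e-10 were kept, the Scnn1a difference became 0.333 peaks, the opposite direction.

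Cftr, the chloride and bicarbonate channel of crypt cells that is mutated in cystic fibrosis in humans, had 2 peaks in each of the 6 libraries. It lies on the plus strand of chromosome 6, 18170687 to 18322770. The first peak, 709 bases at 18267720 to 18268428, lay inside the gene with the same ends in every list. Its fold enrichment was 15.1, 10.9 and 7.5 in the normal lists and 9.07, 3.71 and 5.6 in TNBS 1, 2 and 3. In TNBS 3 this peak stood at percentile 11.3 of the caller's score, against 86.2 to 90.7 in the normal lists and 91.3 and 53.2 in TNBS 1 and TNBS 2. At a fold enrichment of at least 4 it was lost from TNBS 2.

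The second Cftr peak began at 18320833 in every library but ended at different places. It ended at 18322769, 18322755 and 18322769 in normal 1, 2 and 3, within 15 bases of the end of the gene, and at 18322506, 18322076 and 18322287 in TNBS 1, 2 and 3. Its length was 1937, 1923 and 1937 bases in the normal lists and 1674, 1244 and 1455 bases in the TNBS lists. Every TNBS peak was shorter than every normal one, as the map of the end of Cftr shows. Means were 1932 ± 8.08 and 1458 ± 215 bases (SD, n = 3 each), a difference of -475 bases (exact permutation p = 0.1, the smallest possible, and 1 after adjustment over the 7569 regions called in all 6 libraries). Of those regions 3.03% were longer in every normal library and 0.766% in every TNBS library. TNBS 1 and TNBS 3 are the libraries without listed Y peaks outside the distal end of that chromosome. TNBS 2 is 1 library and the shortest list. Over all peaks the median length was 608.5 to 656 bases in normal lists and 518, 616 and 477 in TNBS 1, 2 and 3. The part of these list differences in the Cftr result was not tested. The fold enrichment of this Cftr peak was 57.5, 43.8 and 29.2 in normal 1, 2 and 3. It was 32.2, 11.3 and 20.45 in TNBS 1, 2 and 3, where normal 3 lay below TNBS 1.

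**Figure D3:**
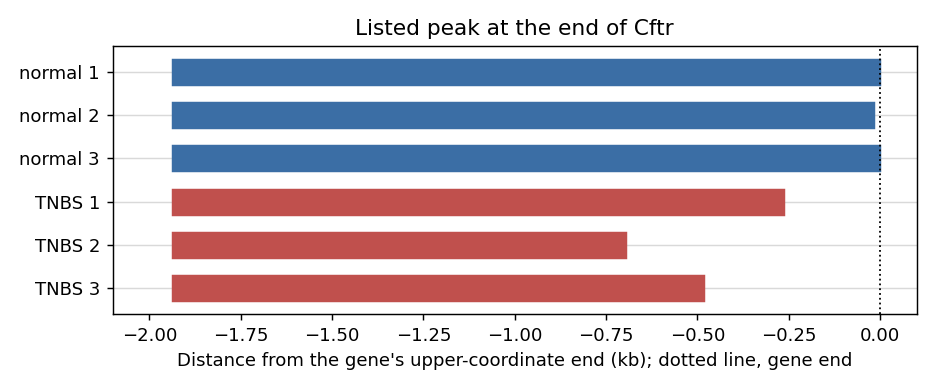
The listed peak at the end of Cftr in each library (bars, to scale), as distance in kb from the end of the gene with the upper coordinate (dotted line); blue, normal; red, TNBS. All 6 bars begin at the same base, and the TNBS bars, of 1674, 1244 and 1455 bases, stop short of the normal bars, of 1923 to 1937 bases.

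Fabp2, the intestinal fatty acid binding protein of absorptive cells, had 1, 2 and 1 peaks in the normal lists, 0 in TNBS 1 and TNBS 2, and 2 in TNBS 3. The groups overlapped, with a difference of -0.667 peaks (exact permutation p = 0.6). Leaving out 1 library gave -1.33 (without TNBS 3) to -0.333 (without normal 2, TNBS 1 or TNBS 2), and without TNBS 1 and TNBS 3 together it was -1.33. Its shared peak, 173 bases at chromosome 3, 122896737 to 122896909, had a fold enrichment of 3.83, 6.16 and 3.23 in the normal lists and 8.45 in TNBS 3. It ranked at percentile 20.5, 48.0 and 13.7 of the caller's score in the normal lists and 72.1 in TNBS 3, so the only TNBS list with Fabp2 held its strongest rank. At a fold enrichment of at least 4, which removed the shared peak from normal 1 and normal 3 and the other Fabp2 peak from normal 2, the difference turned to 0.333 peaks. TNBS 3 was also the longest list and the library with the most epithelial markers, 9 of 12. Of 5 small intestine or Paneth cell markers it listed Lyz1 alone, and the other libraries listed none. Lct, Sis, Apoa4 and Defa24 had no peak in any library. The part of cell make-up in the Fabp2 and Car2 results was not tested. Fabp2 and Car2 shared their presence over the 6 libraries, the 3 normal ones and TNBS 3, which 0.779% of all genes did.

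The other Fabp2 peak lay at the start of this plus-strand gene. It ran from 122895112 to 122895479 in normal 2 and from 122895219 to 122895479 in TNBS 3. The normal 2 peak began so close to the annotated start of the gene, at 122895072, that its first 10 bases fall in the promoter window of RefSeq (GRCm38.p6), which ends after the first bases of the transcript. They are shown because they are the only bases of a listed member peak that the reference tables used here hold, with the bases inside the peak in capitals, at chr3:122895092-122895121 on the plus strand.
Fabp2 start: cctccggagagcagcgattaAAAGTGTCAG

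**Figure D4:**
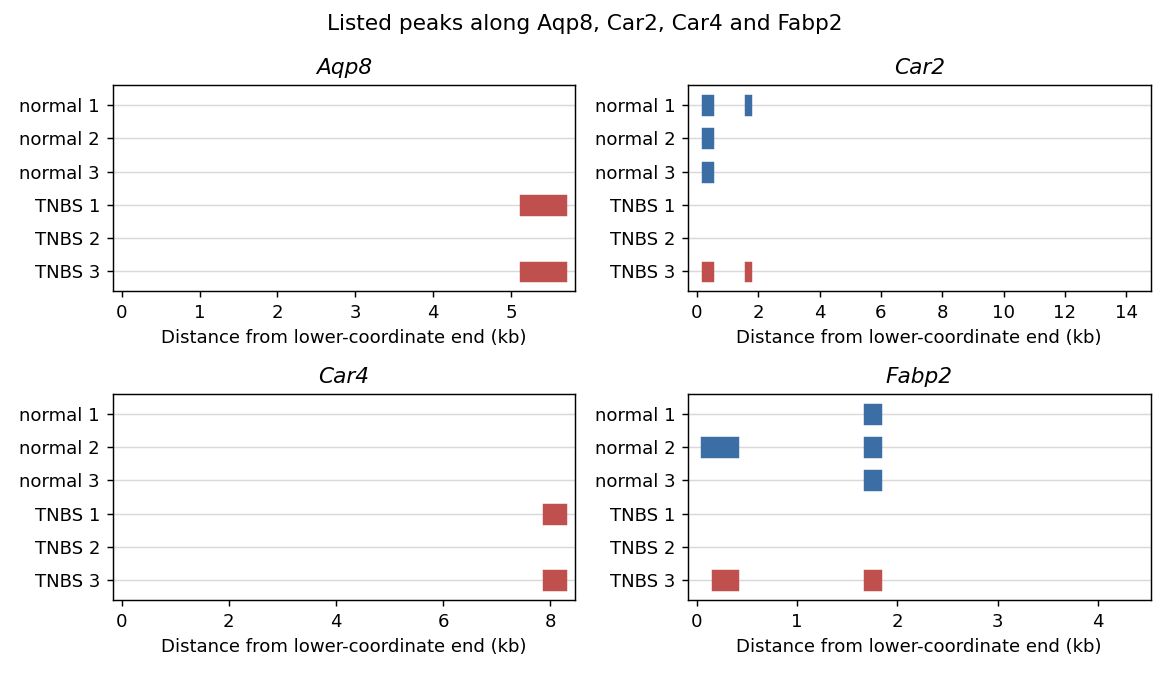
Listed peaks (bars, to scale) along Aqp8, Car2, Car4 and Fabp2 in each library, as distance in kb from the end of the gene with the lower coordinate; blue, normal; red, TNBS. Aqp8 and Car4 have a peak at the far end of the gene in TNBS 1 and TNBS 3 alone, and both Car2 and Fabp2 have peaks in the 3 normal libraries and TNBS 3.

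Most member regions kept the same edges between libraries, as most regions of all genes did. Of the 16 member regions, all listed in at least 2 libraries, 13 (81.25%) had the same first and last base in every library that listed them, against 58.6% of 19795 regions with 1 peak in each of at least 2 libraries. The exceptions were the widest Aqp4 peak, the Cftr peak at the end of the gene and the Fabp2 peak at its start. Of these only the Cftr peak was among the 4 member regions called in all 6 libraries. Of 7337 regions of all genes with 1 peak in each of the 6 libraries, 53.4% kept both edges. Peaks that ended at the last base of the gene were found in Aqp8, Car4 and Scnn1a, and in Aqp4 the widest peak of normal 1 did so on the minus strand.

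By the score percentile of each gene's strongest peak within a list, Aqp4, Scnn1a and Cftr stood high and the others lower. Some other peaks of Aqp4, Scnn1a and Cftr ranked low, down to percentile 0.27 for the Scnn1a peak of 191 bases in normal 2. Of the 62 member peaks, 22 had a score of 3100, at which many peaks tie, 15 of 38 in normal and 7 of 24 in TNBS lists, and all 22 were in these 3 genes. Of all peaks, 13.3% to 18.8% in the normal and 8.65% to 16.9% in the TNBS lists scored 3100 or more. The false discovery rate that the caller gave the member peaks was never below 18.79%, and it was 100% for 7 of the 38 normal and 19 of the 24 TNBS peaks. That rate was also 100% for 10.5% to 37.8% of all peaks in the normal lists and 66.6% to 100% in the TNBS lists, so it sets no member apart.

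**Figure D5:**
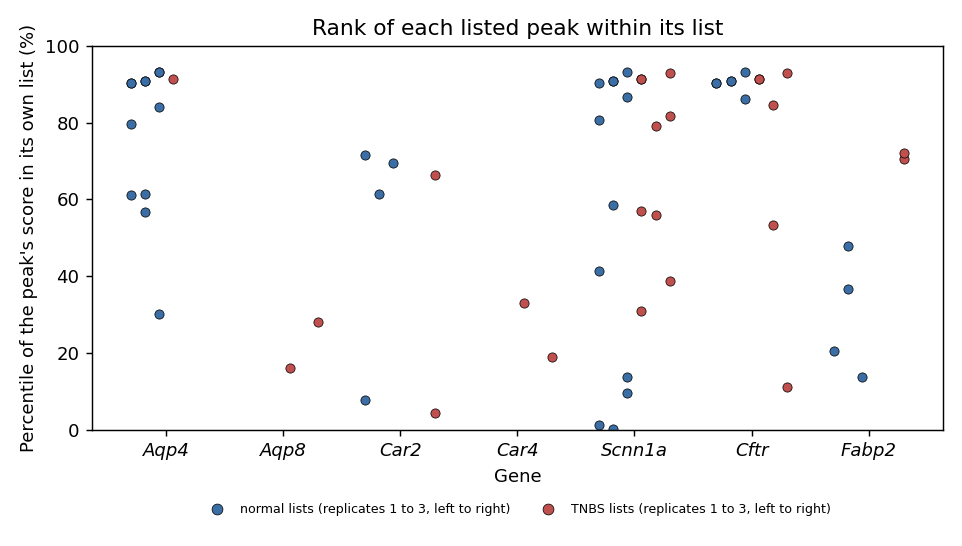
Percentile of the caller's score of each listed peak (points) within its own list, by gene; blue, normal; red, TNBS; replicates 1 to 3 from left to right in each colour. Aqp4, Scnn1a and Cftr reach percentiles of 90 and above, where scores tie, while Aqp8 and Car4 lie between 16.1 and 33.1.

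Around the members, 54 other genes of ion, water and lipid transport were looked up, and 41 had a peak in any library, 21 of them in all 6. Among those in all 6 were Scnn1b, the beta subunit of the sodium channel, Prss8, a protease that activates it, Nedd4l, a ubiquitin ligase that removes it from the membrane, and the mineralocorticoid receptor gene Nr3c2. The gamma subunit gene Scnn1g and Slc26a3, the main chloride and bicarbonate exchanger of the colon, had no listed peak. Of the 41, 12 were listed in more TNBS than normal libraries, 7 in fewer and 22 in the same number, a median difference of 0. Over all genes these shares were 21.1%, 23.9% and 55.0%. Normal 1, 2 and 3 listed 30, 29 and 28 of them, and TNBS 1, 2 and 3 listed 35, 28 and 36. The groups overlapped at 28. Within the families of the members, Aqp11 was listed in all 6 libraries, Car12 in 2 normal and 3 TNBS libraries and Car9 in TNBS 2 alone. Aqp3, Aqp7, Car3, Car8, Car13, Fabp1, Fabp5 and Fabp6 had no listed peak in any library.

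Slc9a8, a sodium and proton exchanger, had a peak in 3 of 3 TNBS and 0 of 3 normal libraries. It was the only one of these genes with that pattern, which 0.996% of all genes showed. Its fold enrichment was 9.72, 3.87 and 10.25 in TNBS 1, 2 and 3 (exact permutation p = 0.1 for the number of peaks, adjusted p = 1). With a difference of 2 libraries toward TNBS stood Aqp1, a water channel of endothelium and other cells, the potassium channel Kcnq1, the chloride channel Clcn2, Guca2a, which encodes guanylin, the alkaline phosphatase Alpi, and Slc51a, part of the bile salt exporter. Of these, Aqp1, Clcn2, Guca2a and Alpi had the presence of Aqp8 and Car4, a peak in TNBS 1 and TNBS 3 alone. Over all genes 3.65% had this presence, and TNBS 1 and TNBS 3 were the 2 longest lists. Trpv6, a calcium channel, was the only one with a difference of 2 toward normal, with a peak in normal 1 and normal 2. How many of all genes differ by 2 libraries was not counted, so no shift of the transport genes is read from these numbers. None of the 54 had the presence of Aqp4, Car2 or Fabp2.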

How the data were processed

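Peaks of pulled-down over input RNA were analysed from 6 lists, 3 normal and 3 TNBS, mapped to mouse labels by sheet name. Per the submitters' processing notes, CASAVA 1.8 and BWA were used and hg19 is named as the build. In each list 99.1% to 99.5% of peaks lay on the mouse gene with their identifier in GRCm38.p6, so GRCm38 positions are given, counted from 1 (listed starts plus 1, which met the gene's lower end in 7330 peaks against 395 for the listed starts). Caller settings and read depth are not given in the sources used here. Per the file headers, the deposited score is the negative log10 of the caller's p-value multiplied by 10, with 50 as the lowest, and the authors also give a fold enrichment ratio and a false discovery rate in percent. These describe and rank peaks within 1 list.

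Presence, number of peaks and bases covered were computed per gene and library with Python 3.11.15, and peaks sharing 1 base were merged into regions. Tests were two-sided exact permutation tests over 20 regroupings, adjusted over all genes by Benjamini-Hochberg. The permutation test, but not the adjustment, was run on simulated counts without spread within a group, which checks the calculation alone. The members and lists were chosen with earlier results of these data known. All 8 members are named, and of the other 54 genes those restricted to a group or with a difference of 2 libraries. Gene strands are from RefSeq promoter entries (4 of 8 members) and otherwise background. Marker lists of smooth muscle (4 to 6 of 8 genes with a peak per library), immune cells (3 to 5 of 10) and small intestine or Paneth cells (0 or 1 of 5) were also counted. Alternatives were stricter peaks, equal list lengths, gene spans, 50% overlap, left-out libraries and pairing.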

Additional observations from a re-analysis of the deposited data

How the results depend on the processing

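Of 156 single-gene differences under an alternative, 143 kept their direction, 9 fell to 0 and 4 reversed. The difference in Cftr peaks, 0 as reported, moved to -0.333 in 3 of 12 alternatives, with p at most 1e-10, fold of at least 4 and equal list lengths. No p passed 0.05, which 3 against 3 libraries cannot reach. With only peaks of p at most 1e-10, Scnn1a reversed to 0.333 peaks and 63.7 bases, and at a fold enrichment of at least 4, Fabp2 reversed to 0.333 peaks and 87 bases (TNBS minus normal). The 9 that fell to 0 were the peaks and bases of Aqp8 and Car4 with equal list lengths and without TNBS 1 and TNBS 3, and the Fabp2 peaks with equal list lengths. Aqp8 and Car4 were listed in TNBS 1 and TNBS 3 alone, so leaving out both lists had to give 0. Cutting the lists to equal length by score removed the low-ranked peaks of both genes. The cause of the other changes was not tested. Aqp4 and the Cftr bases kept their direction under every alternative run.

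Leaving out 1 library, which loosens the rules, gave a difference in members with a peak of -1.5 to 0.5 (as reported -0.667), positive without TNBS 2. Members with more peaks in every normal library were 1 to 3 (as reported 1) and in every TNBS library 0 to 2 (0). For bases these were 2 to 4 (2) and 0 to 2 (0). Restricted members were 0 to 2 (0) in both directions. Restricted regions were 3 to 5 (3) for normal and 0 to 2 (0) for TNBS libraries. The normal counts rose without TNBS 1 or TNBS 3, and the TNBS counts rose to 2, Aqp8 and Car4, without TNBS 2.

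Without TNBS 1 and TNBS 3 together, chosen after seeing the data, the difference in members with a peak was -3. Members with more peaks and with more bases in every normal library were then 4 and 5. Restricted members were 3 and restricted regions 8 for normal libraries. The 1 TNBS list left, TNBS 2, has no spread of its own and is the shortest list. It listed 59.6% of all genes, against 70.6% to 78.2% in the normal libraries. How many of all genes or regions show these patterns with libraries left out was not counted. No shift of the members is therefore read from these counts.

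With a replicate block the Aqp4 difference stayed at -3.67 peaks (exact paired permutation p = 0.25, the smallest that 3 pairs allow). Deviations of same-numbered libraries correlated at -0.0457, -0.175 and -0.0270 over all genes. Those of differently numbered libraries correlated at -0.0686 to 0.116. These values show no pairing by number, but 3 libraries per group cannot exclude one. The depth behind each peak is unknown, which limits every statement on a missing peak.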
